A study of Mus musculus with 3 samples.

Results

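The genes described here make and control membrane lipid. They are 29 genes of sterol and fatty acid synthesis, out of 20368 genes in the table, and were read from a list of names: 17 enzymes between acetoacetyl-CoA and cholesterol, 5 regulators of the pathway (Insig1, Insig2, Srebf1, Srebf2 and Scap), the thiolase Acat2, the sterol carrier Stard4, and 5 genes of fatty acid synthesis (Fasn, Scd1, Scd2, Acaca and Acly). Their levels come from single-cell RNA sequencing (10x Genomics Chromium, in which each droplet tags the RNA of a cell) of 14192 cells from the prefrontal cortex of mice. The mice, of both sexes, breathed about 3% sevoflurane, a gas used for anaesthesia, in 1 session on postnatal day 6 and were killed that same day; the labels give no strain and no genetic change. There are 3 libraries of 4775, 5134 and 4283 cells, all in that 1 exposed group, so every comparison below is between kinds of cell and none measures an effect of the anaesthetic.

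Cells were put into 8 classes by pairs of marker genes, both above 0 in a cell, and cells that met more than 1 pair were left out. The pairs were Aqp4 and Gja1 for astrocytes, Pdgfra and Lhfpl3 for oligodendrocyte precursor cells (OPCs), Bmp4 and Gpr17 for committed OPCs, Mag and Mobp for oligodendrocytes, Dlx1 and Sp9 for neuroblasts of the inhibitory lineage, P2ry12 and Csf1r for microglia, Cldn5 and Flt1 for endothelium, and Kcnj8 and Vtn for pericytes. This kept 3451 astrocytes, 2616 OPCs, 336 committed OPCs, 19 oligodendrocytes, 1804 neuroblasts, 1628 microglia, 772 endothelial cells and 849 pericytes. Another 917 cells met more than 1 pair and 1800 met none. None of the 29 genes served to define a class, but a cell needs a value above 0 for both markers, so shallow cells are missed. Of 4 further markers set for each class other than astrocytes, all 4 were highest in their own class for oligodendrocytes, neuroblasts, microglia, endothelium and pericytes, and 3 of 4 for OPCs and committed OPCs. In astrocytes the markers Slc1a3, Slc1a2 and Aldoc were higher than in any other class. The libraries shared 90 cell barcodes, each found in more than 1 library. Median detected genes per cell were 2603, 2502 and 2508 in libraries 1, 2 and 3, and between 1865 and 3015 in the 8 classes. The deposited values had been corrected for depth by the authors, so the depth behind each value is unknown, and values are given as corrected counts per cell or as CPM, corrected counts per 1000000 of the cell's total. Neither unit is divided by transcript length, so levels are compared between cells and not between genes. The labels do not say that the libraries came from separate animals. Shifts that all classes of a library share are taken out by the fit below. P-values thus rest only on how class differences vary between these 3 libraries, which may be technical.

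Cholesterol is made from acetyl-CoA in a long chain of steps: Hmgcs1 makes hydroxymethylglutaryl-CoA, the mevalonate enzymes Mvk, Pmvk, Mvd and Idi1 turn it into isoprene units, Fdps and Fdft1 join these into squalene, Sqle and Lss close the rings, and Cyp51 and later enzymes trim lanosterol into cholesterol. The proteins of Srebf1 and Srebf2 switch these genes on when membranes run short of sterol; Scap escorts them to the Golgi and Insig1 and Insig2 hold them back in the endoplasmic reticulum. Brain cholesterol is made within the brain because the blood-brain barrier keeps out lipoproteins of the blood, and astrocytes and myelinating oligodendrocytes are known for making much of it.

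The proteins of Srebf1 and Srebf2 act at promoters together with general factors such as NF-Y, which binds CCAAT, so the promoters of 4 genes are shown: Hmgcs1 and Sc5d, 2 enzymes higher in astrocytes than in each of 4 classes compared with them, and Ebp and Acly, which depart from that pattern. Each runs for 250 bases up to the base before the RefSeq start, from the RefSeq promoter table of build GRCm38.p6, on the strand of the gene. The windows are chr13:119690101-119690350 on the plus strand (Hmgcs1), chr9:42264301-42264550 on the minus strand (Sc5d), chrX:8193513-8193762 on the minus strand (Ebp) and chr11:100528001-100528250 on the minus strand (Acly). Capitals mark CCAAT or its reverse ATTGG and, in Hmgcs1, TCACCCCAC, a match to the sterol regulatory element type TCACNCCAC; Acly has no capitals because neither is in its window.
Hmgcs1: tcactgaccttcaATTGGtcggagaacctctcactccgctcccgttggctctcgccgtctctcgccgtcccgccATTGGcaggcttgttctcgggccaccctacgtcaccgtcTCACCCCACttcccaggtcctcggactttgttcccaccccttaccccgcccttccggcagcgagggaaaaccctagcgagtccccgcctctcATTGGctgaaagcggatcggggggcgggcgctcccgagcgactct
Sc5d: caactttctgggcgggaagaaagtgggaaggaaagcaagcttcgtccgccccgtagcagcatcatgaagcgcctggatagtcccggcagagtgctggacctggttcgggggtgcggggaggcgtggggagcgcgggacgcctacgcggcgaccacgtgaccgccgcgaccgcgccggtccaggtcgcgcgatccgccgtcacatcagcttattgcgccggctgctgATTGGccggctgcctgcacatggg
Ebp: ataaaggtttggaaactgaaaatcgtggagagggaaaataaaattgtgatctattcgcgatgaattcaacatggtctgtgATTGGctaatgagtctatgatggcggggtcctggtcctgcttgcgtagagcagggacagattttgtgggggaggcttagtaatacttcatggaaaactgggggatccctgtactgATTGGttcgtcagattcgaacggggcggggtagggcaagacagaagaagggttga
Acly: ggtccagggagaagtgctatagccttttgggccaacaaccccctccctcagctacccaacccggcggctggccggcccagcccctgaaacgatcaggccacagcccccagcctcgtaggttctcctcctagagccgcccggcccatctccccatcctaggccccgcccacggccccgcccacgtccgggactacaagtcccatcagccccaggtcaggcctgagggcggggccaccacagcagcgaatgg

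In Hmgcs1 the TCACCCCAC match begins 137 bases before the start and the 3 ATTGG matches begin 237, 176 and 45 bases before it, with no shared bases. Sc5d has 1 ATTGG, beginning 24 bases before the start, and Ebp has 2, beginning 170 and 55 bases before it. Of the 29 genes, 23 had at least 1 promoter entry, 31 entries in all. CCAAT on either strand was present for 19 of those 23 (82.6%), against 40.8% of the 7793 genes with an entry that also passed the expression filter used below and 37.5% of all 27025 genes with an entry. GGGCGG, the Sp1 box, was present for 20 of 23 (87.0%), against 66.6% and 35.4%. CACGTG, an E-box, was present for 5 of 23 (21.7%: Dhcr7, Hsd17b7, Insig1, Sc5d and Scap), against 10.2% and 6.86%. TCACNCCAC was present for Hmgcs1 alone (4.35%), against 1.26% and 1.22%. All were sought on both strands. These matches describe letters in a window and show no binding.

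Summed over the 29 genes, astrocytes held 55.1, 54.4 and 55.8 corrected counts per cell in libraries 1, 2 and 3, a mean of 55.1 ± 0.696 (SD, n = 3 libraries). OPCs held 21.5, 20.5 and 22.6, or 21.5 ± 1.02, and committed OPCs 19.0, 17.9 and 23.6, or 20.2 ± 3.05, with overlapping libraries. Neuroblasts held 9.88, 10.0 and 8.04. Every library of astrocytes lay above every library of those 3 classes. Lower again were microglia at 7.0, 7.37 and 5.87, endothelium at 5.36, 4.95 and 4.71, and pericytes at 5.51, 5.31 and 5.58. Neuroblasts and microglia did not overlap, and neither did microglia and pericytes, while the ranges of endothelium and pericytes overlapped. The 19 oligodendrocytes, 5, 5 and 9 per library, held 58.6, 73.4 and 57.4; their lowest library was above the highest of astrocytes. That order did not hold in CPM, where the 29 genes summed to 9051, 9093 and 9075 in astrocytes and to 7762, 10026 and 7670 in oligodendrocytes, so that the libraries overlapped. A sum over these genes is given without a p. The astrocyte sum divided by that of the same library averaged 2.56 ± 0.089 for OPCs, 2.77 ± 0.36 for committed OPCs, 5.98 ± 0.833 for neuroblasts, 8.25 ± 1.11 for microglia, 11.0 ± 0.787 for endothelium and 10.1 ± 0.146 for pericytes.

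**Figure D1:**
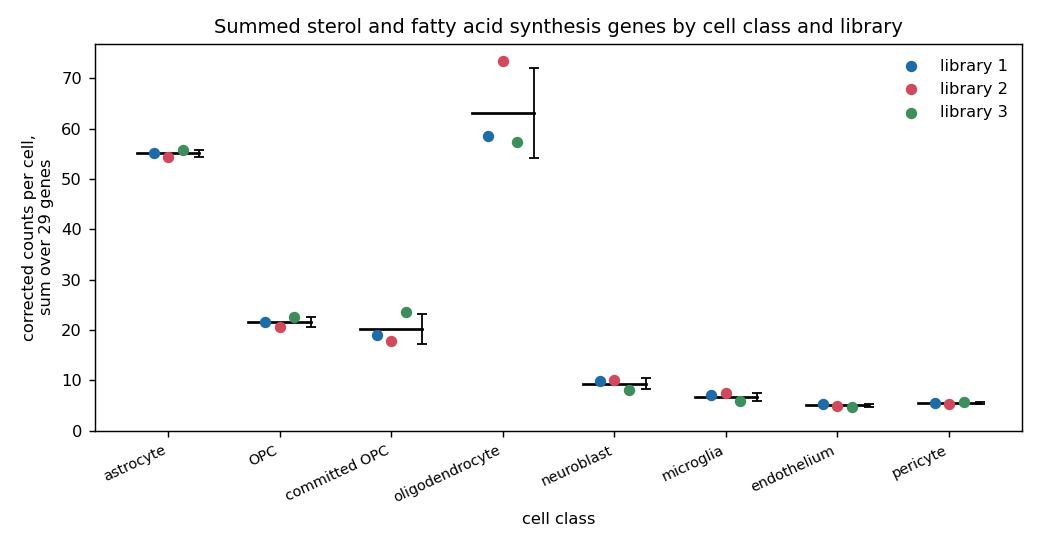
Corrected counts per cell summed over the 29 genes, by cell class. Points are the means over cells in libraries 1, 2 and 3, black lines are the mean of the 3 libraries and bars the SD; the vertical axis starts at 0. Astrocytes sit between 54.4 and 55.8, OPCs between 20.5 and 22.6, and the 19 oligodendrocytes between 57.4 and 73.4.

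In some classes the summed sterol enzymes and the summed fatty acid genes differed from astrocytes by factors of different size. The 17 sterol enzymes summed to 39.8, 39.5 and 39.6 corrected counts in astrocytes and to 15.3, 14.7 and 16.1 in OPCs, a ratio of 2.58 ± 0.11. The 5 fatty acid genes summed to 9.94, 9.63 and 10.7 in astrocytes and to 3.22, 3.06 and 3.49 in OPCs, a ratio of 3.10 ± 0.0462. Against endothelium the order was the other way: the ratio was 15.0 ± 1.24 for sterol enzymes and 9.42 ± 1.05 for fatty acid genes, with no overlap between the 2 sets of 3 libraries. Pericytes went the way of OPCs, with ratios of 11.1, 11.1 and 11.0 for sterol enzymes and 13.3, 13.2 and 12.4 for fatty acid genes. The sums under these ratios were small. Sterol enzymes and fatty acid genes came to 2.66 ± 0.237 and 1.08 ± 0.0971 corrected counts in endothelium and 3.58 ± 0.0221 and 0.779 ± 0.0703 in pericytes. Endothelial levels of Hmgcs1, Msmo1, Fdft1 and Fasn are not read as expression below, which limits the endothelial ratios. In committed OPCs, neuroblasts and microglia the ratios of the 2 branches overlapped. The fatty acid genes made up 18.3% ± 0.756 of the total over the 29 genes in astrocytes, 15.1% ± 0.318 in OPCs and 21.5% ± 0.802 in endothelium. Most of that was Scd2 alone, at 13.8%, 10.1% and 15.3% of the total, so the ratios of this branch are mainly those of Scd2. The other genes did not share 1 step to endothelium. By mean CPM astrocytes stood 39.8 times above it for Fasn, 68.4 times for Scd1 and 6.97 times for Acaca. Acly was at 79.4 against 36.9 CPM. Endothelium held 2.31 CPM of Fasn and 2.76 of Scd1, which is not read as expression. The ratios of Fasn and Scd1 say only how far endothelium lay under astrocytes. The 5 regulators differed least, with ratios of 2.05 ± 0.0351 for OPCs and 4.90 ± 0.688 for endothelium.

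Within a class, cells differed widely. Over all 3451 astrocytes the sum had a median of 55, with the 5th and 95th percentiles at 19 and 90, and a median of 18 of the 29 genes were above 0 in a cell. Over OPCs the median was 21, the percentiles 8 and 37, and the median number of genes above 0 was 11. The OPC median thus lay near the 5th percentile of astrocytes. Committed OPCs were skewed, with a median of 16 and a 95th percentile of 45. Medians were 8 in neuroblasts, 5 in microglia, 4 in endothelium and 5 in pericytes.

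**Figure D2:**
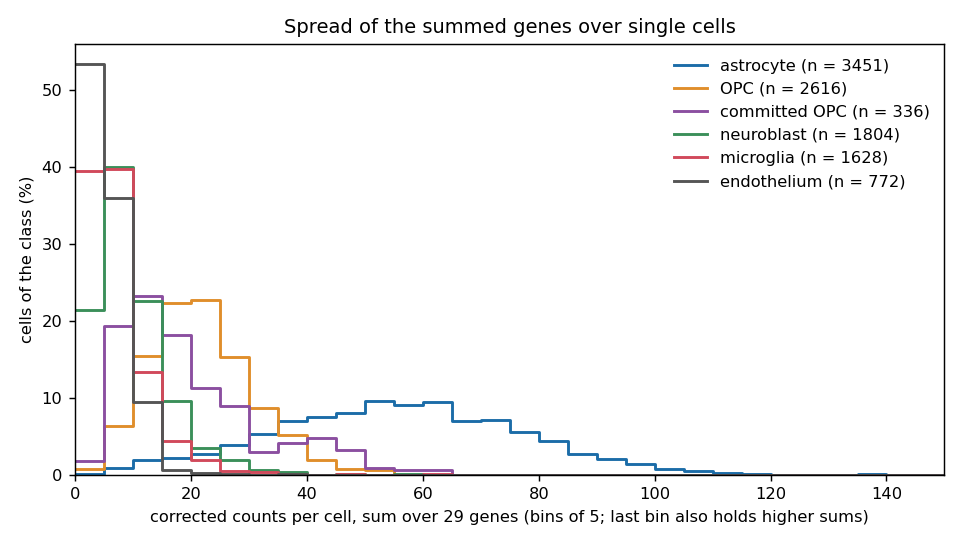
Share of cells (%) of 6 classes in bins of 5 corrected counts summed over the 29 genes; the last bin also holds all higher sums. The astrocyte curve is broad around its median of 55, the OPC curve peaks near its median of 21, and the committed OPC curve has a long right side up to a 95th percentile of 45.

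To test single genes, the mean CPM of each class and library, after adding 10 CPM, was taken to log2 and fitted with limma for the 7 classes that had at least 10 cells in every library, with library as a block. Of all genes, 9911 passed a mean of 10 CPM over the classes and were tested together; all 29 genes described here passed. A gene is called at a Benjamini-Hochberg adjusted p under 0.05. Oligodendrocytes, at 5 cells in 2 of the libraries, were not in this fit. Between any of the 7 classes 29 of 29 differed, where 99.1% of all genes tested did.

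OPCs were lower than astrocytes in 23 of the 29 genes and higher in 0 (limma), where 19.6% of all genes tested were lower, 39.1% higher and 58.7% called in either direction. The median log2 fold of the 29 was -1.02, beside 0.15 for all genes tested. The largest falls were in Srebf1, Scd1, Tm7sf2, Msmo1 and Scd2. Srebf1, whose protein drives fatty acid synthesis above all, stood at 123, 107 and 113 CPM in astrocytes and 13.2, 14.1 and 16.0 in OPCs, with no overlap (log2 fold -2.35, SE 0.21, limma adjusted p = 2.06e-09). Srebf2, the factor best known for sterol genes, stood at 119, 110 and 115 CPM in astrocytes and 116, 118 and 109 in OPCs, where the libraries overlapped (log2 fold -0.01, SE 0.118, limma adjusted p = 0.963). Whether the 2 factors differed from each other in this was not tested.

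Scd1 and Scd2 encode desaturases that put a double bond into newly made fatty acids; they are close paralogs, so reads of either may be counted for the other. Scd1 was at 192, 190 and 184 CPM in astrocytes and 30.8, 33.7 and 36.6 in OPCs (log2 fold -2.19, SE 0.149, limma adjusted p = 2e-11). Scd2 was at 1231, 1209 and 1332 CPM in astrocytes and 395, 390 and 415 in OPCs (log2 fold -1.63, SE 0.107, limma adjusted p = 1.04e-11). Neither pair of groups overlapped. Fasn, the fatty acid synthase, was at 89.8, 84.5 and 102 against 53.1, 47.5 and 49.97 CPM and was also called, though not with 1 CPM added in place of 10 (limma adjusted p = 0.0573). Acaca and Acly, which supply it with malonyl-CoA and acetyl-CoA, were at 42.6 ± 2.21 against 37.5 ± 7.55 CPM and 79.4 ± 0.924 against 70.9 ± 3.36 CPM, with limma adjusted p of 0.361 and 0.32.

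Among the sterol enzymes, 16 of 17 were lower in OPCs, from Hmgcs1 to Dhcr7, with Ebp the exception. Msmo1 (chr8:64718139-64733792 of GRCm38, minus strand), which removes methyl groups from lanosterol's product, was at 1234, 1251 and 1245 CPM in astrocytes and 345, 353 and 359 in OPCs (log2 fold -1.79, SE 0.117, limma adjusted p = 9.6e-12). It was above 0 in 94.96% ± 0.918 of astrocytes, 73.5% ± 3.44 of OPCs and 18.2% ± 2.06 of neuroblasts, against 17.01% ± 1.41 of endothelial cells, where its level was lowest; median detected genes in those classes were 2761, 2640, 1865 and 2846. With every cell thinned to 4000 corrected counts the shares in the first 3 were 92.7%, 65.0% and 14.1%. Tm7sf2, a sterol reductase, was at 186, 194 and 199 CPM in astrocytes and 33.4, 37.6 and 38.2 in OPCs (log2 fold -2.13, SE 0.134, limma adjusted p = 4.97e-12). Its exons overlap those of Vps51 on the same strand by up to 532 bases, so its level is uncertain where the counting could not separate them. Hmgcs1 (chr13:119690379-119708260, plus strand), the enzyme whose promoter carries the sterol element above, was at 1353, 1315 and 1304 against 519, 542 and 570 CPM. Sqle, squalene epoxidase, fell least of the called enzymes, from 470, 452 and 420 to 311, 279 and 305 CPM (log2 fold -0.57, SE 0.163, limma adjusted p = 0.00473); without library 2 the adjusted p was 0.0698. Ebp, a sterol isomerase, was the enzyme not called, at 32.8, 34.0 and 33.6 in astrocytes and 38.5, 39.0 and 42.4 CPM in OPCs (log2 fold 0.20, SE 0.104, limma adjusted p = 0.104).

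Of the regulators, Insig1, itself a known target of the pathway, fell from 274, 292 and 295 CPM in astrocytes to 120, 126 and 128 in OPCs (log2 fold -1.14, SE 0.141, limma adjusted p = 3.45e-07). Insig2, its relative, moved less, from 54.6, 54.0 and 55.7 to 36.5, 35.4 and 47.5 CPM (limma adjusted p = 0.0183), and its call ended without library 1 (0.121) or library 2 (0.17). Scap stood at 45.2 ± 2.43 and 37.6 ± 4.32 CPM, with overlapping libraries. Stard4, which carries sterol between membranes, fell from 43.5, 45.5 and 46.5 to 16.3, 14.2 and 15.8 CPM. Astrocyte markers were also found in OPCs: Slc1a3 was at 386 ± 21.9 CPM against 3792 ± 269 in astrocytes and Slc1a2 at 168 ± 4.02 against 2272 ± 48.3, while Aqp4 was at 15.0 ± 2.03 and 1602 ± 35.9 CPM. In the 2321 OPCs with Aqp4 and Gja1 both at 0 the summed genes came to 21.4 ± 1.1 corrected counts. All 23 genes called stayed lower than in astrocytes. That could hardly come out otherwise, since astrocyte RNA in OPCs would raise these genes towards astrocytes. How much astrocyte RNA the OPCs hold was not tested.

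**Figure D3:**
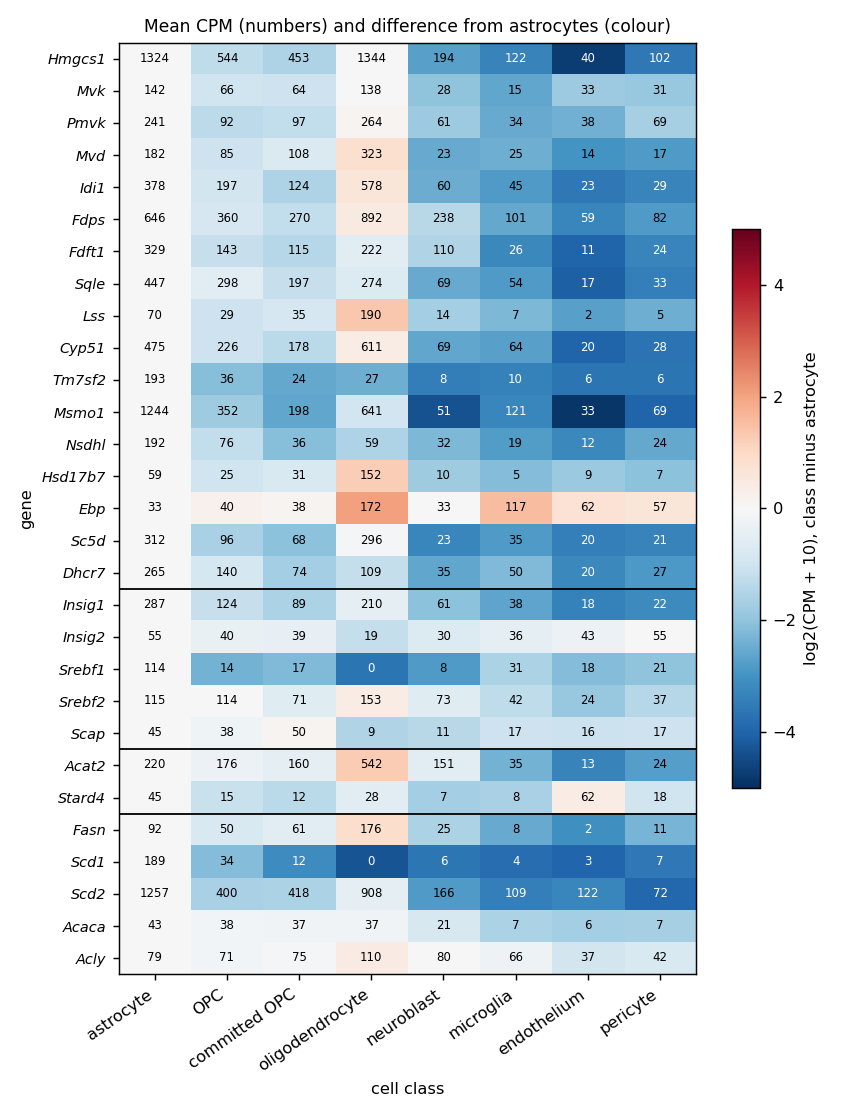
Mean CPM of each gene in each class (numbers, mean of 3 libraries) and the difference from astrocytes on the log2(CPM + 10) scale (colour, blue lower and red higher). Lines part the sterol enzymes, the regulators, Acat2 with Stard4, and the fatty acid genes. Blue fills most rows outside astrocytes and the 19 oligodendrocytes; Ebp is red in microglia (117 against 33.4 CPM in astrocytes) and Stard4 in endothelium (61.9 against 45.2).

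Against astrocytes, neuroblasts were lower in 27 of the 29 genes and higher in 0 (limma), where 41.5% of all genes tested were lower, 29.5% higher and 71.0% either. Microglia were lower in 27 and higher in 1, with 50.2% of all genes lower, 23.7% higher and 74.0% either, and endothelium was lower in 26 and higher in 1, with 43.1% lower, 29.3% higher and 72.3% either. Median log2 folds of the 29 were -2.02, -2.52 and -3.22, beside -0.11, -0.27 and -0.15 for all genes tested. These 3 comparisons and that of OPCs share the astrocyte values, so they are not independent of each other. Across the 4, 21 of the 29 genes were lower than astrocytes each time, where 10.1% of all genes tested were. The exceptions were Ebp, Insig2, Srebf2, Scap, Acat2, Stard4, Acaca and Acly. By mean CPM, astrocytes were the highest of the 7 classes for 25 of the 29; Ebp was highest in microglia, Stard4 in endothelium, Scap in committed OPCs and Acly in neuroblasts. The first and second class were not apart for Insig2 (astrocytes and pericytes), Srebf2 and Acaca (astrocytes and OPCs), Scap (committed OPCs and astrocytes) and Acly (neuroblasts and astrocytes).

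In neuroblasts the largest falls were in Msmo1, Scd1, Tm7sf2, Sc5d and Scd2. Msmo1 stood at 52.8, 51.6 and 47.1 CPM there (log2 fold -4.37, SE 0.117, limma adjusted p = 1.78e-18). Hmgcs1 stood at 178, 208 and 196 CPM and fell less (log2 fold -2.71, SE 0.104, limma adjusted p = 4.4e-16). Fdps, which makes farnesyl diphosphate and so also feeds protein prenylation, was at 262, 260 and 191 CPM against 652, 656 and 629 in astrocytes (log2 fold -1.42, SE 0.158, limma adjusted p = 3.91e-08); its exons overlap Gm43738 on the same strand by up to 1124 bases. Acat2, the thiolase that makes acetoacetyl-CoA, was at 164, 171 and 119 CPM in neuroblasts and 221, 222 and 216 in astrocytes. Its call (limma adjusted p = 0.00953) ended when values were centred on the median gene (0.183). Fdps and Acat2 thus stood nearer to their astrocyte levels than Msmo1 did. Astrocyte markers were found in neuroblasts too, with Slc1a3 at 150 ± 50.2 CPM, Slc1a2 at 69.3 ± 6.57 and Aqp4 at 14.8 ± 3.49. How much of a level as low as that of Msmo1 is astrocyte RNA was not tested.

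In microglia the largest falls were in Scd1, Scd2, Tm7sf2, Hmgcs1 and Msmo1, of which Hmgcs1 stood at 133, 123 and 110 CPM (log2 fold -3.34, SE 0.104, limma adjusted p = 6.48e-18) and Scd1 at 0.878, 6.72 and 4.72. In endothelium they were in Msmo1, Hmgcs1, Sqle, Fdft1 and Cyp51. Hmgcs1 there was at 43.4, 31.7 and 44.0 CPM (log2 fold -4.76, SE 0.104, limma adjusted p = 1.33e-20). So low a level is not read as expression in endothelium, and the fold says only how far it lay under astrocytes.

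Ebp ran against the other sterol enzymes. It was at 117, 122 and 114 CPM in microglia and 32.8, 34.0 and 33.6 in astrocytes, with no overlap (log2 fold 1.55, SE 0.104, limma adjusted p = 5.82e-12). In endothelium it was at 59.7, 63.1 and 62.5 CPM (log2 fold 0.72, SE 0.104, limma adjusted p = 1.61e-06), and it was above 0 in 45.6% ± 3.45 of microglia, 35.6% ± 1.86 of endothelial cells and 18.0% ± 0.058 of astrocytes, at median detected genes of 1892, 2846 and 2761. After thinning these shares were 35.8%, 23.2% and 12.3%, in the same order. Stard4 was at 48.9, 61.2 and 75.6 CPM in endothelium and 43.5, 45.5 and 46.5 in astrocytes (log2 fold 0.37, SE 0.177, limma adjusted p = 0.0696), so the libraries did not overlap but the gene was not called. Insig2 was at 47.6, 44.5 and 37.8 CPM in endothelium (limma adjusted p = 0.0651) and 54.6 ± 3.42 in pericytes. Acly was at 80.0 ± 8.83 CPM in neuroblasts and 65.7 ± 2.65 in microglia, with limma adjusted p of 0.969 and 0.0765 against astrocytes. Over the 21 means of 7 classes and 3 libraries, Pearson's r of log2 level with the summed level of the other 28 genes was -0.622 for Ebp, 0.066 for Stard4 and 0.185 for Insig2, against 0.989 for Idi1, 0.986 for Insig1 and 0.983 for Cyp51. The 21 means share libraries, and r describes them only.

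Between the vascular classes the differences were smaller. Pericytes were higher than endothelium in 12 of the 29 genes and lower in 2 (limma), where 38.0% of all genes tested were higher, 22.6% lower and 60.6% either, so the share that was higher is near that of all genes. The median log2 fold was 0.27, beside 0.13 for all genes. Hmgcs1 was at 102, 105 and 98.2 CPM in pericytes (log2 fold 1.18, SE 0.104, limma adjusted p = 1.28e-09), and Msmo1 at 77.7, 72.1 and 56.9 against 36.0, 31.4 and 30.7 (log2 fold 0.88, SE 0.117, limma adjusted p = 8.77e-07). Pmvk, Fdft1 and Fasn were the next largest rises. The endothelial levels of Hmgcs1, Msmo1, Fdft1 and Fasn were low and, as said above of Hmgcs1, are not read as expression. Their folds say only how far the classes lay apart. Fasn was at 13.4, 2.72 and 15.5 CPM in pericytes and 2.09, 3.25 and 1.59 in endothelium, which overlap, and its call ended without library 1 (limma adjusted p = 0.0864) or library 3 (0.0719). Stard4 was lower in pericytes, at 20.6, 17.9 and 14.9 CPM (log2 fold -1.36, SE 0.177, limma adjusted p = 6.71e-07), as was Scd2, at 57.6, 88.3 and 71.0 against 140, 110 and 115 (log2 fold -0.69, SE 0.107, limma adjusted p = 7.6e-06). Of the astrocyte markers, Slc1a2 was at 42.8 ± 11.2 CPM in pericytes and 21.6 ± 8.03 in endothelium, Slc1a3 at 55.6 ± 7.28 and 18.8 ± 3.08, and Aqp4 at 10.4 ± 2.85 and 4.36 ± 2.95. Gja1 was above 0 in 55.3% of endothelial cells, at 153 ± 10.2 CPM, and in 6.68% of pericytes, at 15.5 ± 2.99. Asking for Aqp4 and Gja1 both at 0 left 751 of 849 pericytes and 338 of 772 endothelial cells. These endothelial cells are thus a subset picked by Gja1. In the cells left, the mean log2 folds of all 14 genes kept their sign. Hmgcs1 was at 1.61 ± 0.22 and Scd2 at -0.37 ± 0.57 (SD over libraries). For Scd2 and Srebf2 (0.50 ± 0.52) the SD exceeded the size of the fold. For Fasn (0.74 ± 0.72) and Dhcr7 (0.47 ± 0.45) it was near it. No test was made in these cells.

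Along the oligodendrocyte lineage some of the genes were lower at the committed stage and 15 were not called. The summed corrected counts of the 2 classes overlapped, while their CPM sums did not, at 3907, 3851 and 4009 in OPCs and 2942, 2845 and 3661 in committed OPCs. Committed OPCs were lower than OPCs in 13 of the 29 genes and higher in 1 (limma), where 29.9% of all genes tested were lower, 23.2% higher and 53.1% either. The share called in either direction is thus near that of all genes, while the share lower is above that of all genes. Of the 541 cells with the committed OPC pair, 205 met another pair and were left out, and 171 of the 541 held the OPC pair. The median log2 fold was -0.27, beside -0.05 for all genes. Scd1, Nsdhl, Dhcr7, Msmo1 and Idi1 fell most. Astrocyte markers were lower as well. Slc1a3 went from 386 ± 21.9 CPM in OPCs to 28.1 ± 7.62 in committed OPCs, and Slc1a2 from 168 ± 4.02 to 28.8 ± 15.3. Aqp4 (15.0 ± 2.03 and 5.78 ± 6.07 CPM) and Gja1 (11.9 ± 0.112 and 8.39 ± 7.42) overlapped between the classes. Whether astrocyte RNA in OPCs adds to the falls of the 29 genes was not tested. Msmo1 went from 345, 353 and 359 CPM in OPCs to 174, 178 and 243 in committed OPCs (log2 fold -0.81, SE 0.117, limma adjusted p = 3.97e-06). Nsdhl, a partner of Msmo1 in removing methyl groups, went from 79.5, 74.2 and 74.8 to 31.6, 45.1 and 30.8 (log2 fold -0.92, SE 0.146, limma adjusted p = 1.43e-05). Dhcr7, which makes cholesterol from its last precursor on 1 route, went from 139, 137 and 145 to 61.8, 79.6 and 79.6 (log2 fold -0.85, SE 0.128, limma adjusted p = 7.2e-06). None of these 3 pairs overlapped. Scd1 went from 30.8, 33.7 and 36.6 to 16.0, 10.8 and 10.7 CPM, while Scd2 was at 395, 390 and 415 and then 426, 384 and 444 (limma adjusted p = 0.668). Srebf2 went from 116, 118 and 109 to 69.3, 73.8 and 70.2 CPM (log2 fold -0.62, SE 0.118, limma adjusted p = 1.29e-04). The gene that was higher was Mvd, a mevalonate enzyme, at 98.8, 101 and 125 against 84.2, 81.0 and 89.3 CPM (log2 fold 0.31, SE 0.111, limma adjusted p = 0.022), and its call ended without any 1 library (0.051, 0.0828 and 0.119). The count of called genes was 7 without library 1 and 7 without library 2. With corrected counts not rescaled to CPM, 5 genes were higher and 7 lower; committed OPCs had more corrected counts per cell, at a median of 6601.5 against 5254.5 in OPCs.

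The sum followed a dip and a climb along this lineage, as a description without a test. Slc1a3 and Slc1a2 also fell from OPCs to committed OPCs, as given above, and a part of astrocyte RNA in the dip was not tested. The split by Mag, a myelin gene, was chosen after the values were seen. OPCs held 3907, 3851 and 4009 CPM over the 29 genes, the 152 cells with both the OPC and the committed OPC pair 3038, 2969 and 2929, and the 172 committed OPCs with Mag at 0 held 2551, 2493 and 2742. The 164 committed OPCs with Mag above 0 held 3339, 3341 and 4172, the 8 cells with both the committed OPC and the oligodendrocyte pair 4565, 7313 and 4233, and the 19 oligodendrocytes 7762, 10026 and 7670. No neighbours in this order overlapped; committed OPCs with Mag above 0 reached from below the OPC range to above it. Mean Mbp, the gene of myelin basic protein, was 42.2, 643, 1594, 11725, 27292 and 48629 CPM in the same order. Cells that hold both pairs can also be droplets with more than 1 cell, which was not tested.

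**Figure D4:**
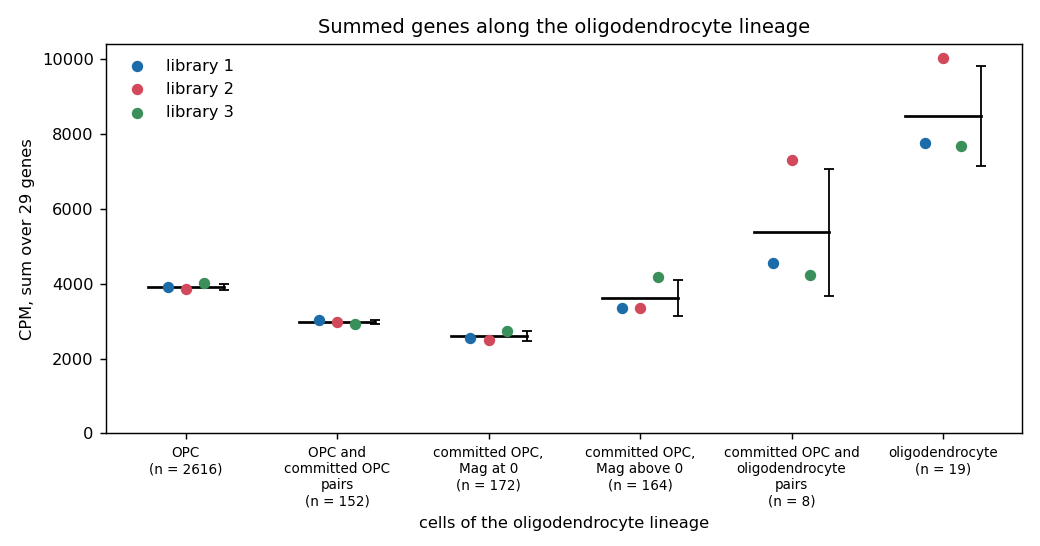
CPM summed over the 29 genes in 6 groups of the oligodendrocyte lineage, with the number of cells; points are libraries, lines the mean of 3 libraries and bars the SD. Committed OPCs with Mag at 0 are lowest, at 2493 to 2742 CPM, and the 19 oligodendrocytes highest, at 7670 to 10026.

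The genes did not move as a block in that climb. From committed OPCs with Mag at 0 to those with Mag above 0, Fasn went from 41.9, 58.7 and 35.9 to 81.2, 72.7 and 69.4 CPM, and Scd2 from 317, 318 and 349 to 538, 477 and 497, both without overlap. Hmgcs1 went from 350, 342 and 391 to 498, 457 and 632, also without overlap, and Msmo1 from 146, 138 and 127 to 203, 234 and 307. Srebf2 went the other way, from 81.2, 91.0 and 72.6 to 57.2, 49.7 and 68.8 CPM. Nsdhl, at 37.7, 41.4 and 36.6 and then 25.3, 50.3 and 27.6 CPM, overlapped. In the 19 oligodendrocytes Lss, lanosterol synthase, was at 155, 326 and 89.1 CPM, Hsd17b7 at 244, 109 and 103, and Acat2 at 432, 575 and 620, each above every other class. Scd1 and Srebf1 were at 0 in all 19, which allows up to 15.8% of such cells to hold a count of each, by counting error alone, and sets no limit on how many express it, while Scd2 was at 1072, 900 and 751 CPM. With 5 cells in a library these values rest on few cells, and no test was made.

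Dividing cells, those with Top2a and Mki67 both above 0, were compared with the other cells of the same class, in 1 limma fit of 9816 genes with 334 dividing OPCs and 104 dividing astrocytes (24, 51 and 29 per library). Dividing astrocytes were lower in 18 of the 29 genes and higher in 0, where 10.4% of all genes tested were lower, 17.7% higher and 28.1% either; the median log2 fold was -0.46, beside 0.04. Mvd, Hsd17b7, Scd1, Insig1 and Pmvk fell most. Mvd was at 97.7, 79.5 and 101 CPM in dividing and 185, 191 and 179 in other astrocytes (log2 fold -0.93, SE 0.115, limma adjusted p = 4.97e-05). Insig1 was at 192, 161 and 150.9 against 275, 297 and 300 (log2 fold -0.76, SE 0.111, limma adjusted p = 1.86e-04), and Scd1 at 96.7, 106 and 121 against 194, 193 and 186 (log2 fold -0.77, SE 0.125, limma adjusted p = 4.61e-04). No pair overlapped. The 18 were every sterol enzyme but Mvk, with Insig1 and Scd1. The sum over the 29 genes was 46.4, 40.1 and 44.1 corrected counts in dividing and 55.3, 54.9 and 56.2 in other astrocytes. The astrocyte markers Aldoc, at 890 ± 12.8 against 2030 ± 77.4 CPM, and Slc1a2, at 2037 ± 69.6 against 2280 ± 52.5, were also lower, Slc1a3 was at 3436 ± 67.9 against 3803 ± 277, and detected genes higher, at a median of 3345.5 against 2749. Without library 2 the count of called genes was 11.

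Dividing OPCs were lower in 8 of the 29 genes and higher in 2 (limma), where 6.90% of all genes tested were lower, 13.4% higher and 20.3% either; the median log2 fold was -0.10, beside 0.07. Mvd fell most, to 62.3, 51.1 and 49.3 CPM from 87.1, 85.6 and 95.3 (log2 fold -0.63, SE 0.115, limma adjusted p = 0.00136), and Dhcr7, Msmo1, Hmgcs1 and Fdps followed. Stard4 was higher, at 30.3, 21.9 and 26.0 against 14.5, 13.04 and 14.3 CPM (log2 fold 0.59, SE 0.141, limma adjusted p = 0.00921), and its call ended without any 1 library (0.0625 to 0.0653). Ebp was higher, at 60.8, 48.2 and 61.2 against 35.5, 37.5 and 39.6 CPM (log2 fold 0.48, SE 0.154, limma adjusted p = 0.0412), a call that also ended without any 1 library (0.133 to 0.159). Neither pair overlapped. The count of called genes was 4, 2 and 5 without libraries 1, 2 and 3. The sum in corrected counts, 21.3, 20.7 and 22.5 in dividing and 21.5, 20.5 and 22.6 in other OPCs, overlapped. Median detected genes were 3468.5 and 2578, and with corrected counts not rescaled to CPM 4 of the 29 were higher and 2 lower. The 4 further OPC markers summed to 3176 ± 77.7 CPM in dividing and 4876 ± 158 in other OPCs. Aldoc was at 50.3 ± 11.9 against 121.7 ± 3.67 CPM and Slc1a3 at 238 ± 20.4 against 407 ± 23.7. Aqp4, at 16.35 ± 2.48 against 14.84 ± 2.45 CPM, was not lower.

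The log2 fold of dividing over other cells differed between the classes for 2 of the 29 genes, Ebp and Insig1. Both were higher in OPCs relative to astrocytes, where 0.479% of all genes tested were higher by the same contrast, 1.75% lower and 2.23% either. Dividing and other cells also differ in detected genes and markers, so the contrast does not isolate division. For Ebp, dividing astrocytes were at 24.98, 18.8 and 15.3 CPM against 32.9, 34.5 and 34.2 in other astrocytes, the opposite direction to OPCs (difference of log2 folds 1.06, SE 0.217, limma adjusted p = 0.0221). Ebp was above 0 in only 16.7%, 11.8% and 10.3% of dividing astrocytes in the libraries, so these levels rest on few cells. For Insig1, dividing OPCs were at 132, 131 and 105 CPM against 118, 125 and 131, and the difference was 0.73 (SE 0.157, limma adjusted p = 0.0269). Both calls ended without any 1 library (0.0974 to 0.251 for Ebp, 0.0874 to 0.358 for Insig1). For the other 27 the difference was not called, and Hsd17b7 (1.02, SE 0.262, limma adjusted p = 0.0672) was the largest of them.

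**Figure D5:**
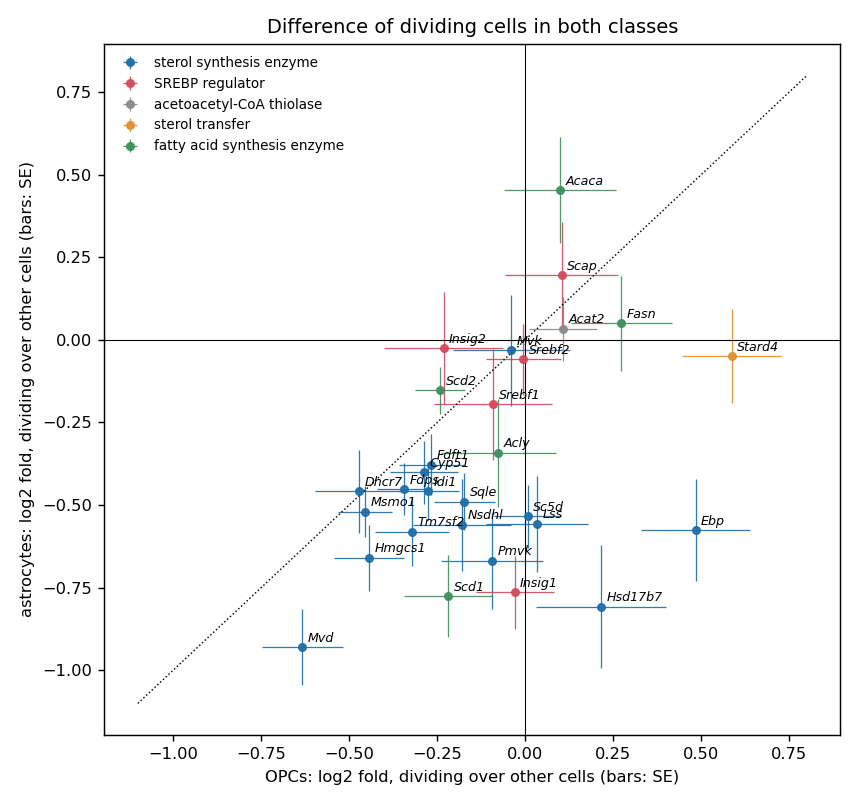
Log2 fold of dividing over other cells in OPCs (horizontal) and astrocytes (vertical) for the 29 genes, with SE bars and colour by role; the dotted line marks equal folds. Most sterol enzymes lie below 0 in astrocytes, Ebp (0.48 in OPCs, -0.58 in astrocytes) lies far right of the dotted line, and Mvd is lowest in both.

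The wider lipid pathway was followed with a list of 43 genes of sterol uptake, export, transport and fatty acid handling that are not among the 29; 37 of them passed the filter. In OPCs against astrocytes 8 of the 37 were higher and 18 lower, where 39.1% and 19.6% of all genes tested were. Ugt8a and Fa2h, which make galactolipids of myelin, were higher at 141 ± 4.67 and 19.0 ± 0.218 CPM against 3.24 ± 0.16 and 0.797 ± 0.163, as was the sterol exporter Abcg1. Apoe, the main lipid carrier of the brain, was lower (log2 fold -4.12, SE 0.111, limma adjusted p = 3.31e-18), with Acsbg1 and the fatty acid binding protein Fabp5. These genes of myelin lipid were thus higher in OPCs, opposite to the 23 genes above. In committed OPCs against OPCs 10 were higher and 19 lower, where 23.2% and 29.9% of all genes were: Fa2h, Elovl7 and Ugt8a rose, to 194 ± 21.5, 153 ± 25.6 and 654 ± 128 CPM, and Fabp7, Apoe and Lbr fell.

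Against astrocytes, 3 of the 37 were higher and 27 lower in neuroblasts, where 29.5% and 41.5% of all genes tested were. They numbered 9 and 22 in microglia (23.7% and 50.2% of all genes) and 6 and 20 in endothelium (29.3% and 43.1%). Lbr, which encodes a second sterol reductase of the nuclear membrane, acting at the same step as Tm7sf2, was chosen for mention after its values were seen; it went opposite to Tm7sf2 in all 3. It was at 52.4 ± 12.5, 89.6 ± 20.4 and 79.7 ± 4.23 CPM in neuroblasts, microglia and endothelium against 26.0 ± 0.894 in astrocytes (log2 folds 0.77, 1.45 and 1.32; limma adjusted p = 2.94e-04, 7.16e-08 and 2.97e-07). Tm7sf2 stood at 8.39 ± 1.99, 9.72 ± 2.32 and 5.93 ± 0.303 CPM in the same classes against 193 ± 6.85 (log2 folds -3.47, -3.37 and -3.67). In microglia Lpl, lipoprotein lipase, rose most, to 343 ± 106 CPM, and the lysosomal sterol carrier Npc2 was at 1063 against 315. In pericytes against endothelium 15 were higher and 10 lower, where 38.0% and 22.6% of all genes were, so the shares are near those of all genes. Fabp5, Lrp1 and Nr1h3 rose most, and the sterol exporter Abca1 fell most, at 8.32 ± 2.3 against 242 ± 3.18 CPM. In dividing OPCs 5 were higher and 6 lower of 35 tested (13.4% and 6.90% of all genes), and in dividing astrocytes 3 and 8 (17.7% and 10.4%). Lbr was again higher while Tm7sf2 was lower: in OPCs at 95.1 ± 11.9 against 47.3 ± 3.73 CPM and in astrocytes at 67.5 ± 30.5 against 24.6 ± 0.345, with limma adjusted p of 0.00795 and 0.00142. The call of Tm7sf2 in dividing OPCs (limma adjusted p = 0.0462) ended without library 1 (0.165), library 2 (0.197) or library 3 (0.121), with corrected counts not rescaled (0.225), without the library block (0.0664) and with a filter at a mean of 1 CPM (0.0558). In committed OPCs against OPCs both Lbr (log2 fold -1.34) and Tm7sf2 (-0.46) fell, so the opposite direction did not hold there; the call of Tm7sf2 ended without library 1 (0.128) or library 2 (0.0787).

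Among genes outside both lists, those whose log2 level over the same 21 means was most like the log2 sum of the 29 were Vhl (Pearson's r 0.982), Adgrb1 (0.981), Hacd3 (0.979), 1500009C09Rik (0.979), Gldc (0.973), Sybu (0.972), Actr3b (0.971), Echdc2 (0.970), Sec14l2 (0.969) and Mmd2 (0.969). The means share libraries and classes, so r has no p here. Hacd3, a dehydratase of fatty acid elongation, stood at 306 CPM in astrocytes, 166 in OPCs, 108 in committed OPCs and between 24.0 and 44.1 in the other 4 classes.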

How the data were processed

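The deposited table holds the natural log of 1 plus a whole number for each gene and cell, per its values; the submitters' processing notes name CASAVA 1.8, Cell Ranger, Seurat and build mm10. Undoing the log gave whole corrected counts, which totalled 4422 to 8135 per cell, so the authors had adjusted cells for depth and the depth before that is unknown. Strandedness of the counting is not given in the sources used here. Per the labels' protocols the tissue was flash frozen and RNA taken with Trizol, which is a method for bulk RNA. The labels give 1 group, and the library numbers 1 to 3 come from its titles.

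The 29 genes, the marker pairs and the pathway list were chosen with earlier results of these data known; 4 genes of the pathway list, and results that rest on some marker genes, are not reported here. Each cell was scaled to a total of 1000000, means per class and library were taken to log2(CPM + 10), and limma 3.58.1 (R 4.3.3) was fitted to the 9911 genes that averaged 10 CPM or more, with 12 residual degrees of freedom; cells were handled with scanpy 1.11.5. Library is a block because classes of 1 library come from the same sample. P-values were adjusted by Benjamini-Hochberg over all genes, two-sided. Log2 folds on this scale understate changes of low genes. Cells in more than 1 class were dropped as possible doublets, and Scrublet, which marked 287 cells, was an alternative. Genes named are up to 5 per direction with the largest change among those called, plus genes needed for a step. The planned comparison of oligodendrocytes with committed OPCs was not made, since they had fewer than 10 cells in each library. The fit was tested on simulated data. Other alternatives were another added CPM, other filters, no rescaling, centring, a minimum of 1500 detected genes, leaving out each library, and fitting only the compared classes.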

Additional observations from a re-analysis of the deposited data

Results flagged for a closer look

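The contrast of dividing with other cells picked out a pair of genes whose log2 fold differed between OPCs and astrocytes. For Ebp the log2 fold of dividing over other cells was larger in OPCs by 1.06 (limma, interaction adjusted p = 0.0221), higher in dividing OPCs and lower in dividing astrocytes in all 3 libraries. For Insig1 it was larger in OPCs by 0.73 (limma, interaction adjusted p = 0.0269), with dividing astrocytes lower in all 3 libraries. The dividing astrocytes number 24, 51 and 29 per library, and neither call held without any 1 library. Only 16.7%, 11.8% and 10.3% of these astrocytes held a count of Ebp.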

How the results depend on the processing

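Of 1924 repeats of the 163 calls of the 29 genes under the alternatives, 1811 stayed called in the same direction, 113 lost their call and 0 reversed. Leaving out 1 library gave 7 to 14 genes called for committed OPCs against OPCs, 2 to 5 for dividing OPCs, 11 to 17 for dividing astrocytes and 0 to 0 for the difference between them. That difference had 1 gene without a filter and 1 after centring on the median gene. Dividing OPCs had 6 genes called (4 higher, 2 lower) when corrected counts were not rescaled, and 0 higher and 12 lower after centring. Committed OPCs against OPCs had 3 higher and 10 lower after centring, and pericytes against endothelium 9 higher and 4 lower without rescaling and 9 higher and 3 lower after centring. The astrocyte sum was 51.4 with cells scaled to the same total and 47.1 without Hmgcs1. With centring, the all-gene median log2 fold against astrocytes became 0.17 in place of -0.11 in neuroblasts and 0.09 in place of -0.27 in microglia. Without the replicate block 161 of 163 calls were kept; those of Tm7sf2 (adjusted p = 0.0664) and Scd2 (0.074) in dividing OPCs ended (limma). After thinning, 31 of 203 shares of cells above 0 stayed within 1 SD. The causes were not tested. The alternatives for oligodendrocytes were not run. Depth before the authors' correction is unknown, so low levels carry an error that cannot be given.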
